A study of Mus musculus with 2 samples.

Results

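The 67 replication-dependent histone genes of the mouse were examined in macrophages grown from bone marrow. They were chosen by name: each has a symbol that starts with Hist1h, Hist2h, Hist3h or Hist4h and at least 1 protein-coding transcript. They are 67 of 21901 genes with a protein-coding transcript and of 55450 annotated genes. By class they are 6 H1, 18 H2A, 18 H2B, 12 H3 and 13 H4 genes. In mm10, the assembly of the files, the 54 Hist1 genes lie on chromosome 13 between 21715763 and 23934851, and the 10 Hist2 genes on chromosome 3 between 96219865 and 96270132. The 2 Hist3 genes lie on chromosome 11 and the single Hist4 gene on chromosome 6.

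The study has 1 group of 2 libraries, called replicates 1 and 2. C57BL/6J macrophages (primary cells, age and sex not recorded) were given 100 ng/ml lipid A, the TLR4-binding core of bacterial endotoxin, for 12 h. After 12 h without it they were given 100 ng/ml again for 75 min, and cytosolic RNA was sequenced after removal of ribosomal RNA. There is no untreated group and no nuclear fraction here, so no value below is a response to lipid A or a difference between compartments. The labels list the replicates as separate biological samples under the same donor code.

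Replication-dependent histone genes make the bulk of the histones that package newly copied DNA, and their messages are abundant mainly while a cell copies its genome. H2A, H2B, H3 and H4 form the core of the nucleosome, and H1 binds the linker DNA. Their messages end in a conserved stem-loop rather than a poly(A) tail. The stem-loop binding protein SLBP and the U7 small nuclear ribonucleoprotein direct the cut that makes this end. Libraries made by depleting ribosomal RNA can hold such messages, whereas selection for poly(A) tails would lose most of them.

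Annotated genes received 64181187 and 49424582 expected counts in replicates 1 and 2, so replicate 1 has the smaller counting error. The histone genes took 25053 and 14124 of these, which is 0.0390% and 0.0285% of all counts with transfer RNAs and spike-ins included. All 10 macrophage markers were detected, with summed TPM of 5231 and 5762. Of 30 markers of other lineages, 26 were under a TPM of 1 in both libraries. The other 4 were the neutrophil markers S100a8 (2.21 and 4.35) and S100a9 (3.14 and 7.31), Cd79b (1.07 and 1.73) from the B cell list, and Cd4 (16.7 and 14.1) from the T and natural killer cell list.

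The stem-loop was looked for first, because it defines this gene family. A 16-base histone stem-loop pattern was used, with GG and CC fixed at its ends and CTT, T and A fixed in between. It was searched on the sense strand over the whole length of GENCODE M21 transcripts. It was found in 46 of the 67 genes, 21 to 58 bases after the stop codon (median 31). Among 58725 protein-coding transcripts of other genes it occurred at any position in 0.95%, and within 100 bases of the transcript's end in 10. The sequences below show the commonest form of each class, for a highly expressed gene where possible, with the 16-base match in capitals and 5 bases on each side.
Hist1h1c: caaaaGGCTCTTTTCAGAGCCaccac
Hist2h2aa2: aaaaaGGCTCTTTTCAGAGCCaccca
Hist1h2bg: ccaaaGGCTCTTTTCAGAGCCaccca
Hist1h3b: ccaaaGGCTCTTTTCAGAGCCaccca
Hist1h4m: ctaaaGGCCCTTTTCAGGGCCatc
Hist1h4h: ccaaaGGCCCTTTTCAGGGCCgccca

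H4 genes had a stem of their own. Counting from 1 at the 5′ end of the match, the commonest H4 form differed from the commonest form of H2A by T4C and A13G, which pair with each other in the stem. All 12 H4 genes with a match carried both changes, and none of the 34 matched genes of the other classes did. Less common forms of H4, H2B, H2A and H3 are shown next, because they mark the range of variation within the family.
Hist1h4b: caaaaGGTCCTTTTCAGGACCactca
Hist1h2bb: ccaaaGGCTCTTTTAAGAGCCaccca
Hist2h2ac: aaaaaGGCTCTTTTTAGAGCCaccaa
Hist1h3g: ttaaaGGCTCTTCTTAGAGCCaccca
The 21 genes with no match included 19 with an annotated model that ends at or close after the stop codon. Absence of a match there describes the model and not the message.

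Of the 67 histone genes, 42 were detected, meaning that each replicate gave a TPM of 1 or more, against 40.2% of all protein-coding genes. TPM is a share of all transcripts of a library, corrected for transcript length. The median over the 67 genes was 2.71 in replicate 1 and 1.35 in replicate 2. A TPM of 10 was reached in each replicate by 5 genes, and 100 by none. Another 37 were between 1 and 10 in the lower replicate, and 25 were under 1 in at least 1 replicate. The 5 highest genes held 51.1% and 53.1% of the summed TPM of all 67.

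**Figure D1:**
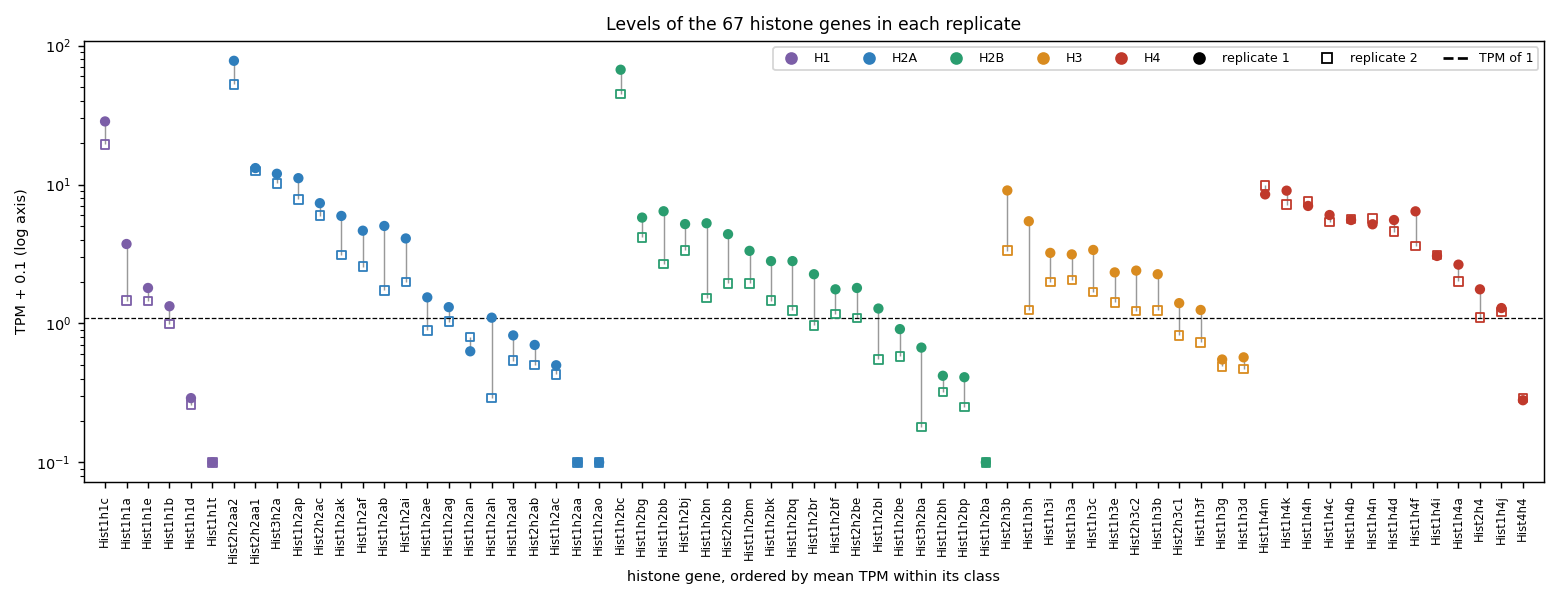
TPM + 0.1 (log axis) of each of the 67 histone genes in replicate 1 (filled circles) and replicate 2 (open squares), by class, with a dashed line at a TPM of 1. Hist2h2aa2, Hist1h2bc and Hist1h1c stand above the rest, and 12 of the 13 H4 genes are detected.

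H2A genes held the highest level of all. Hist2h2aa2 (chr3:96239749-96240276, minus strand) was at a TPM of 77.6 in replicate 1 and 52.55 in replicate 2. Its near-identical neighbour Hist2h2aa1 (chr3:96245497-96246082, plus strand) was at 13.03 and 12.46. Hist3h2a was at 11.85 and 10.07, Hist1h2ap at 11.01 and 7.72, and Hist2h2ac at 7.24 and 5.86. The other 13 H2A genes were lower, from Hist1h2ak at 5.84 and 3.0 down to Hist1h2aa and Hist1h2ao, which had no expected count. Of 18 H2A genes 9 were detected.

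H2B was dominated by a single gene. Hist1h2bc (chr13:23684199-23692908, plus strand) was at a TPM of 66.92 and 44.9 and held 7022 and 3835 expected counts, the most of any histone gene. The next H2B gene, Hist1h2bg, was at 5.68 and 4.06, followed by Hist1h2bb at 6.32 and 2.57 and Hist1h2bj at 5.09 and 3.25. Of 18 H2B genes 10 were detected.

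Among the linker histones, Hist1h1c (chr13:23738808-23740367, plus strand) was at 28.35 and 19.35. Hist1h1a was at 3.63 and 1.36, and Hist1h1e at 1.70 and 1.35. Hist1h1b fell just under the detection minimum, with 1.23 and 0.89, and Hist1h1d was at 0.19 and 0.16. Hist1h1t, the linker histone of the testis, had no expected count in either library of the alignment-based table. The same held there for Hist1h2aa and Hist1h2ba, the testis forms of H2A and H2B. The read-based table gave 1 count to Hist1h1t and 2 to Hist1h2aa in replicate 1, and none in replicate 2. A count of 0 allows up to 3 counts in a library, or 0.0467 and 0.0607 CPM, by counting error alone.

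No H3 gene stood out as these did. Hist2h3b was highest at 8.96 and 3.24, then Hist1h3h at 5.34 and 1.15 and Hist1h3i at 3.12 and 1.89. Of 12 H3 genes 8 were detected, and in every H3 gene the TPM was lower in replicate 2.

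No single gene dominated H4. Of 13, 12 were detected, and their median TPM was 5.45 and 4.48. Hist1h4m was at 8.39 and 9.74, Hist1h4k at 8.93 and 7.06, and Hist1h4h at 6.91 and 7.43. By mean TPM, the remaining detected H4 genes ran from Hist1h4c, at 5.93 and 5.28, to Hist1h4j, at 1.19 and 1.11. Hist4h4, the single gene on chromosome 6, was the exception, at 0.18 and 0.19.

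The detection minimum passed through closely spaced genes. Just above it were Hist2h4 (1.66 and 1.00), Hist1h2bf (1.66 and 1.07) and Hist1h4j. Just below were Hist2h2be (1.70 and 0.99), Hist1h2ag (1.21 and 0.93) and Hist1h1b. In 9 genes only 1 replicate reached a TPM of 1.

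Summed over genes, which depends less on how reads of similar copies were divided within a class where their models have like lengths, H2A held 38.2% ± 0.621 (SD, n = 2) of the histone TPM. H2B held 27.0% ± 2.31, H4 18.5% ± 3.89, H1 8.94% ± 0.196 and H3 7.32% ± 2.00. H2A, H2B and H4 were in the same order in both replicates, with shares that did not overlap between classes. H1 and H3 lay closer together than the SD of H3, with 9.08% and 8.80% for H1 and 8.74% and 5.91% for H3. In expected counts, which are not corrected for length, the order turned: H2B came first with 34.4%, ahead of H2A with 29.2%, and H1 with 19.9% was above H4 with 10.9%. By cluster, Hist1 held 65.8%, Hist2 30.6%, Hist3 3.54% and Hist4 0.0595% of the TPM.

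Many of these genes are near copies. All 13 H4 genes encode the same protein of 103 residues, the first methionine included, and the 12 H3 genes encode 2 proteins, shared by 8 and 4 genes. The 18 H2A genes encode 9 proteins and the 18 H2B genes 12, whereas each of the 6 H1 genes has its own. In 29 genes at least 50% of the 100-base windows of the transcript model also occurred in another gene, and in 6 genes none did. The authors' posterior SD of the count, which measures how surely reads were assigned, had a median of 8.64% and 12.9% of the count in the 27 of the 29 genes with a mean count of at least 10. The median was 0 over the 5 such genes of the 6.

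The pair of highest H2A genes is the clearest case. Hist2h2aa1 and Hist2h2aa2 share a run of 528 bases, which is the whole model of Hist2h2aa2, so their division is the quantifier's estimate. The alignment-based table gave Hist2h2aa1 534 and 409 expected counts, and the one made from the reads gave 844 and 687. For Hist2h2aa2 the values were 2679 and 1446 against 2460 and 1243. Hist1h2ao, which shares 452 bases with Hist1h2ap, had no count in the alignment-based table and 24.4 and 0 in the read-based table. Hist1h4m and Hist1h4n share 366 bases, Hist1h2bq and Hist1h2br 1254, and Hist2h3c1 and Hist2h3c2 666.

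Among genes that were not detected, Hist2h3c1 differed most: it had 234 and 106 expected counts in the alignment-based table and 0.00042 and 0 in the read-based table. None of the 42 detected histone genes differed by 2-fold or more between the tables, against 0.636% of detected protein-coding genes, after both were rescaled to the same total over coding genes. The largest log2 differences, read-based over alignment-based, were 0.65 ± 0.17 (SD, n = 2) for Hist1h2ak, 0.58 ± 0.07 for Hist1h2ai and -0.56 ± 0.47 for Hist1h2bq.

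Annotated models placed much of the signal on transcripts that continue beyond the stem-loop. Models running more than 100 bases past it held 43.0% ± 2.14 (SD, n = 2) of the histone counts. Models that end within 100 bases of it held 22.8% ± 0.241, and 47.3% ± 2.43 of the TPM, since they are shorter. Long models with no match held 29.5% ± 0.849 of the counts, most of them on Hist1h2bc. Counts on a long model cannot tell reads before the stem-loop from reads past it, so these shares describe the models and not how many messages are polyadenylated or unprocessed. TPM divides by the length of the model, whether or not reads cover all of it. The model of Hist1h1c runs 840 bases past its stem-loop, Hist3h2a 1643 and Hist4h4 2445.

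In 5 genes more than 1 protein-coding transcript was annotated. Hist1h2bq split its TPM between a short model, with 79.6% and 76.5%, and a model with a long 3′ end, with 20.4% and 20.8%. Its near copy Hist1h2br was assigned 99.98% and 100% of its TPM on the short model. Hist1h2be was assigned 86.0% and 97.6% on its second transcript, and Hist2h3c1 100% on its second. Hist1h2bp, with 8.66 and 4.4 expected counts, had too few reads to divide.

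Many H2A and H2B genes stand head to head with a short gap between their starts. Of 13 divergent pairs of histone genes with starts within 1000 bases, 12 joined an H2A and an H2B gene. In 5 pairs the members were at least 4-fold apart in TPM + 0.1 in the mean over replicates. Among these 5, the pair of Hist1h2bq with Hist1h2ao and that of Hist1h2ap with Hist1h2br are near copies of each other. Their gaps depend on how reads were divided between the copies. The widest gap was between Hist1h2ac and Hist1h2bc, whose starts are 250 bases apart on chromosome 13. Hist1h2ac was at a TPM of 0.40 and 0.33 and Hist1h2bc at 66.92 and 44.9. In counts, Hist1h2bc was 70.0-fold and 55.6-fold higher.

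The higher member was not always of the same class. Hist1h2ap exceeded Hist1h2br (2.16 and 0.87), whose division from Hist1h2bq is uncertain, and Hist2h2ac exceeded Hist2h2be in TPM. In counts Hist2h2be was the higher, with 458 and 218 against 244 and 157, its model being 2620 bases long against 520 for Hist2h2ac. Hist1h2bg exceeded Hist1h2ae (1.44 and 0.79). The testis pair Hist1h2ba and Hist1h2aa had no expected count on either side in the alignment-based table.

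**Figure D2:**
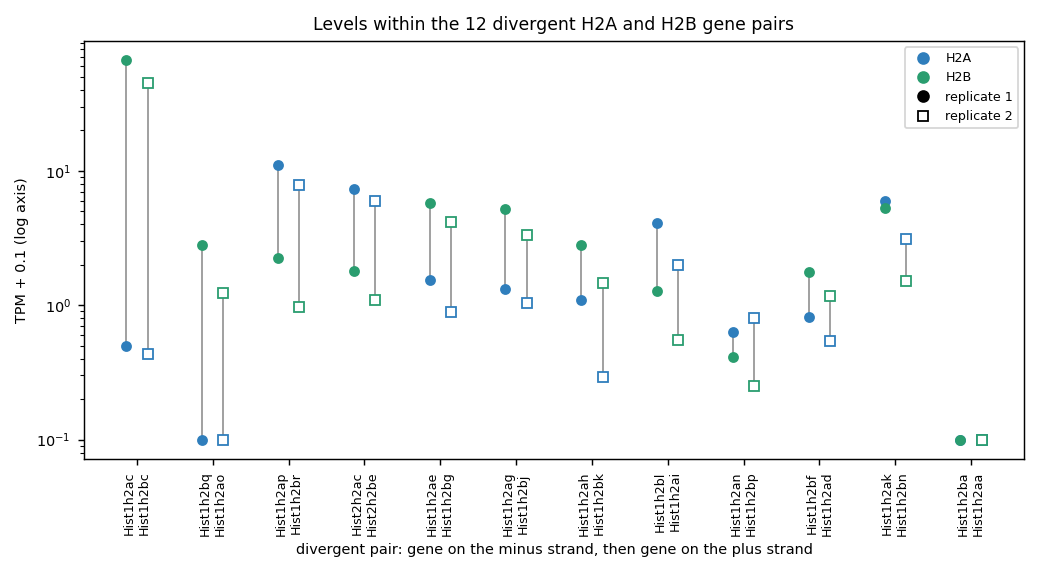
TPM + 0.1 (log axis) of the 12 divergent pairs of an H2A gene (blue) and an H2B gene (green), with replicate 1 filled and replicate 2 open, and a line joining the members in each replicate. The pair of Hist1h2ac and Hist1h2bc is the farthest apart, and the higher member is H2A in some pairs and H2B in others.

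Start regions were compared in RefSeq windows on GRCm38.p6, from 250 bases before to 50 after each gene's start, which were matched for 61 of the 67 genes. Those of divergent pairs overlap. The 3 motifs searched on both strands, none of which contains another, were CCAAT, the TATA box TATAAA and the octamer ATTTGCAT. CCAAT was in all 49 windows of H1, H2A, H2B and H3 genes and in 3 of 12 H4 windows, against 37.4% of 32851 windows of all genes. TATAAA was in 34 of 61, against 13.6%. The octamer was in 13 of 61, namely 7 H2A and 6 H2B windows, against 1.74%. A match may lie anywhere in the window, and it describes the letters there and not binding.

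Shown here are the window of Hist1h2ac (chr13:23683910-23684209, minus strand), which spans the gap to Hist1h2bc, and those of Hist1h3h (chr13:21717378-21717677, plus strand) and Hist1h4m (chr13:21811496-21811795, plus strand). They carry CCAAT with the octamer, CCAAT alone and neither, and each holds the letters TATAAA. Capitals mark the motifs in either orientation. The reverse complement of CCAAT reads ATTGG, that of the TATA box reads TTTATA and that of the octamer reads ATGCAAAT.
Hist1h2ac: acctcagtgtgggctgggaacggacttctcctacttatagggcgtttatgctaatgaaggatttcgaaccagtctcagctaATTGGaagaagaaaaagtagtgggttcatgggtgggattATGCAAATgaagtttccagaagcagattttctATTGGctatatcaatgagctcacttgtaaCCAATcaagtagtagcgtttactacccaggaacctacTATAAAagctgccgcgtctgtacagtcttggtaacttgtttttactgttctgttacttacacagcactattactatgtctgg
Hist1h3h: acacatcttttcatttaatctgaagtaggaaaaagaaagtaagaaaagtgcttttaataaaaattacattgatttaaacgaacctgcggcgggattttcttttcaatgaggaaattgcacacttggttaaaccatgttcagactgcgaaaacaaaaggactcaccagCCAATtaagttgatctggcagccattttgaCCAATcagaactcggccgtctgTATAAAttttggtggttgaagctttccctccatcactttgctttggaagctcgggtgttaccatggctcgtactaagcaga
Hist1h4m: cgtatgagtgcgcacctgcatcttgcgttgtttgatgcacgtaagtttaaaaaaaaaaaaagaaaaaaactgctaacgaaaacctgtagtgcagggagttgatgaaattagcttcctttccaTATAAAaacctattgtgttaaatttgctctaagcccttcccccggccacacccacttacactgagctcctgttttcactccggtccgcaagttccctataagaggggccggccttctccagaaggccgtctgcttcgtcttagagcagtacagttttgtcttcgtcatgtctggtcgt

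The replicates were then compared gene by gene. Replicate 2 held less histone RNA than replicate 1, and the H4 genes took the smallest part in this. A two-sided exact binomial test with library sizes scaled by TMM was run over the 13286 genes whose counts averaged 10 or more, and p-values were adjusted by Benjamini-Hochberg over all of them. A gene was called at an adjusted p under 0.05 and a difference of at least 2-fold. The test covers counting error and compares these libraries, not conditions. Fewer cells copying DNA and less histone RNA per cell cannot be told apart in bulk RNA.

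Of 62 histone genes tested, 12 were called lower in replicate 2, against 2.47% of all genes tested, and 0 were called higher, against 2.98%. At any size, 55 of the 62 were lower, against 54.2% of all genes tested. The log2 ratio of replicate 2 to replicate 1 had a median of -0.59 over the histone genes and -0.04 over all genes tested.

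Among the 12, Hist3h2ba had 25 counts in replicate 1 and 3 in replicate 2, a log2 ratio of -2.49 (95% counting interval -5.05 to -0.97). Hist1h2ah had 21 and 3 counts. Both rest on few reads. Hist1h3h had 115 and 19 counts, a log2 ratio of -2.19 (-3.0 to -1.51). Hist2h3b had 269 and 77 counts (-1.42, interval -1.81 to -1.06), and Hist1h1a had 212 and 64 (-1.34, interval -1.78 to -0.94). The others were Hist1h2bn, Hist1h2ab, Hist1h2bl, Hist1h2br, Hist1h2bb, Hist2h2bb and Hist1h2ai, between -1.84 and -1.03. By class the 12 were 6 H2B, 3 H2A, 2 H3 and 1 H1 gene. By model, 9 of the 12 had no stem-loop match and a short 3′ end, as did 16 of the 62 tested. The counting intervals leave out uncertainty in assigning reads to similar copies. Hist1h2br had 39.75 and 12.47 expected counts with a posterior SD of 33.5 and 10.8. In Hist1h3h the posterior SD was 7.3% and 24.5% of the count. With edgeR's exact test and an assumed coefficient of variation of 0.1, 8 of the 12 were still called. Hist1h2ah, Hist1h2ai, Hist1h2bl and Hist1h2br were not. Including a gene outside the 12, 9 histone genes were called lower, against 1.77% of all genes tested. When counted from the reads, 19 were called lower, the 12 included and again no H4 gene, against 2.77%.

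The most abundant genes were lower by less than 2-fold. Hist1h2bc had a log2 ratio of -0.50 (-0.55 to -0.44), Hist2h2aa2 -0.51 (-0.61 to -0.42), Hist1h1c -0.47 (-0.54 to -0.39) and Hist3h2a -0.15 (-0.24 to -0.06). Hist2h2aa1 was at -0.01 (-0.20 to 0.18), but its division from Hist2h2aa2 is uncertain.

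H4 genes stood apart from the other classes. None of 13 was called, 7 of 13 were lower (5 of 13 by rescaled TPM, described below), and their median log2 ratio was -0.02. Of the 49 other genes tested, 12 were called and 48 were lower, with a median of -0.68. The exception was Hist1h2an, with 10 and 11 counts. By model, the 15 of these 49 genes with no stem-loop match and a short 3′ end gave 9 of the 12 calls, at a median of -1.21. Hist1h4k was the H4 gene with such a model. Of the rest, 2 of 16 that end at the stem-loop were called, at a median of -0.59. So were 1 of 15 that run past it (-0.48) and 0 of 3 long models with no match (-0.69). Among the H4 genes, Hist1h4m had 173 and 157 counts (0.24, interval -0.08 to 0.56), Hist1h4n 120 and 104 (0.17, interval -0.22 to 0.56) and Hist1h4h 194 and 165 (0.14, interval -0.16 to 0.45). The H4 genes farthest below were Hist1h4f, with 123 and 54 counts (-0.80, interval -1.30 to -0.34), and Hist2h4, with 262 and 129 (-0.64, interval -0.96 to -0.34).

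**Figure D3:**
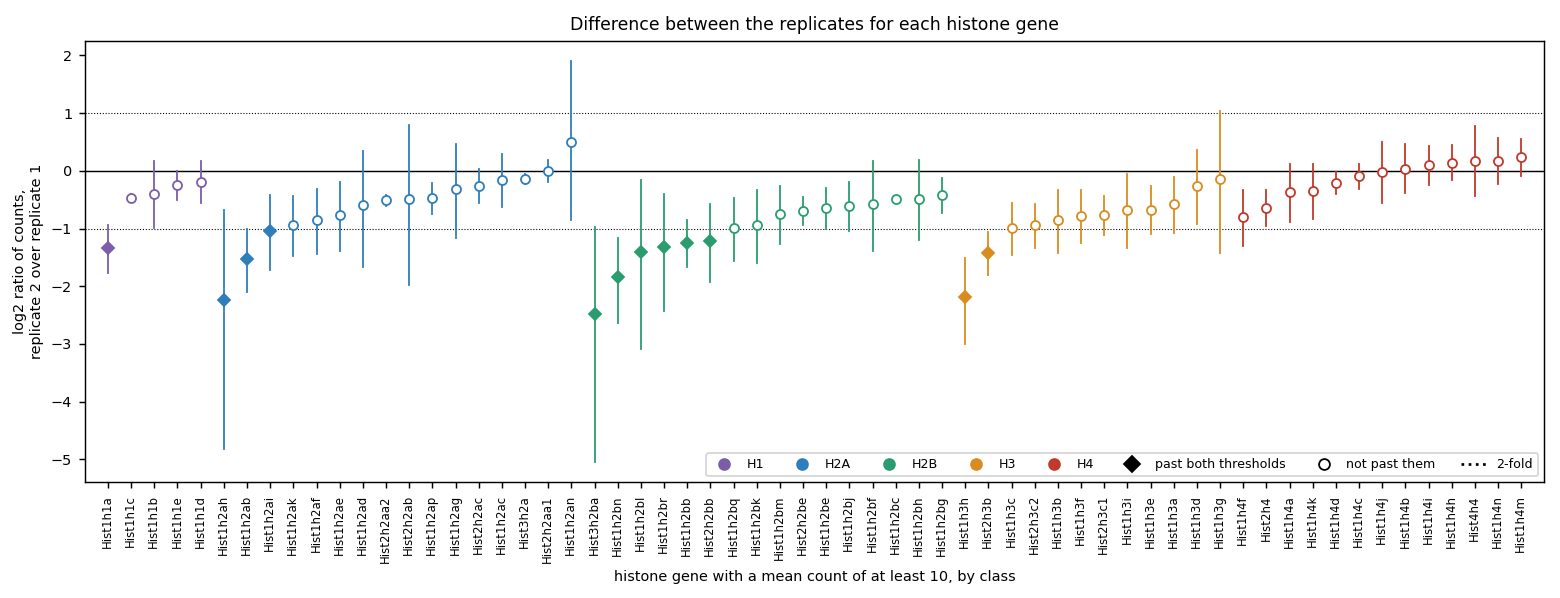
Log2 ratio of counts, replicate 2 over replicate 1, for the 62 histone genes with a mean count of at least 10, by class, with 95% counting intervals, diamonds for genes past both thresholds and dotted lines at 2-fold. The 12 diamonds all lie below 0 and none is an H4 gene.

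Summed by class, the log2 ratios of counts were -0.93 for H3 (95% counting interval -1.06 to -0.79), -0.56 for H2B (-0.61 to -0.50), -0.47 for H1 (-0.54 to -0.40), -0.34 for H2A (-0.40 to -0.29) and -0.13 for H4 (-0.22 to -0.04). The interval of H4 did not overlap that of any other class, nor did that of H3. In the read-based table the values were -1.02 for H3 and -0.19 for H4. With TPM rescaled to a fixed total over protein-coding genes, H3 was again at -0.93, whereas H4 turned to 0.064, so the direction of H4 depends on the scale. The median gene moved too: over 8811 detected protein-coding genes it was 0.049 in rescaled TPM and -0.044 in counts. Sums weigh the most abundant genes most: Hist1h2bc alone had 7022 and 3835 of the 8939 and 4681 H2B counts. By the median count ratio over the genes tested, H2B was lowest at -0.85. H3 followed at -0.77, H2A at -0.50, H1 at -0.39 and H4 at -0.02. The spread between the replicates cannot be set against a second pair of libraries, and whether it recurs was not tested.

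**Figure D4:**
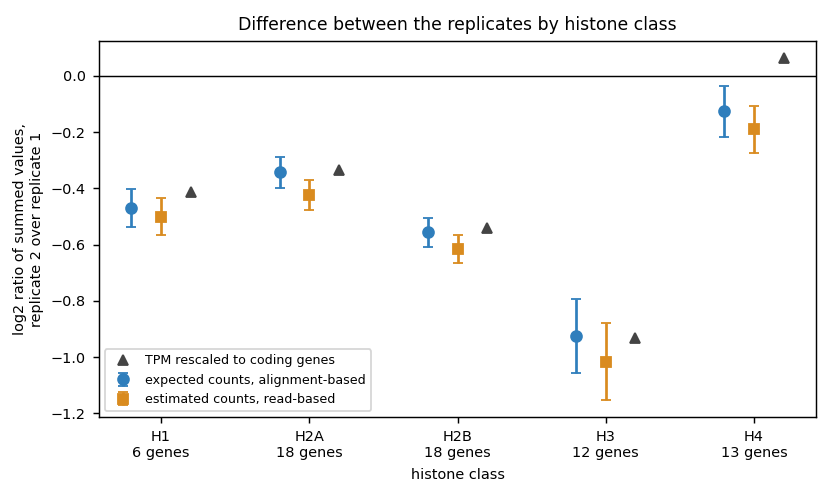
Log2 ratio of summed values, replicate 2 over replicate 1, for each histone class in expected counts (circles) and read-based counts (squares), both with 95% counting intervals, and in TPM rescaled to protein-coding genes (triangles). By these sums H3 is lowest, near -0.93 in expected counts and rescaled TPM, and H4 is nearest to 0 and changes sign with the scale.

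Transcript length moved with the replicates too, and histone models are short. Other protein-coding genes of 300 to under 500 bases were lower in replicate 2 in 55 of 66 cases, with a median log2 ratio of -0.35. The median was -0.32 from 500 to under 1000 bases and -0.02 from 1000 bases up. In the same 3 ranges the histone genes other than H4 had medians of -0.94, -0.67 and -0.48, and the H4 genes 0.09, -0.06 and -0.20. The fragment length implied by the files was 222 bases in replicate 1 and 231 in replicate 2. It was taken as length minus effective length plus 1, as a median over long genes with many counts. TPM corrects for effective length, and on that scale 74.2% of the other genes of 300 to under 500 bases were still lower in replicate 2. The part of fragment length in the histone values was not tested.

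**Figure D5:**
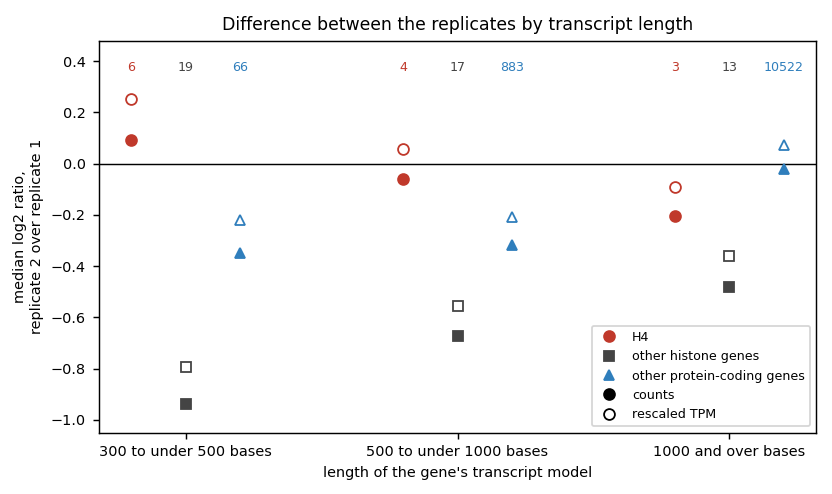
Median log2 ratio, replicate 2 over replicate 1, in 3 ranges of transcript length for H4 genes (circles), the other histone genes (squares) and other protein-coding genes (triangles), in counts (filled) and rescaled TPM (open), with the number of genes tested above. The histone genes other than H4 lie below the other protein-coding genes in each range, while the H4 genes do so only from 1000 bases up.

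Markers of neutrophils were higher in replicate 2, at summed TPM of 5.63 and 12.5, with 4 of 4 tested called higher, against 2.98% of all genes tested, although Elane, Mpo and Ly6g were at or near 0 in both. Called higher among the other markers were Adgre1, a macrophage gene, at a TPM of 358 and 706, and Flt3, a gene of progenitors and dendritic cells, at 0.01 and 0.08. The part of these cells in the histone values was not tested.

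Of 22 S phase and cycling genes, 17 were detected and 1, Ccne2, was called lower, at a TPM of 0.67 and 0.25, against 2.47% of all genes tested. A count of 1 is near that background. Pcna, the sliding clamp of DNA replication, was at 68.4 and 57.3, and Mki67, which cycling cells express, was at 16.9 and 12.9. Over the 22 genes the median log2 ratio was 0.053, and 9 were lower, against 54.2% of all genes tested. Among those 9 were Ccna2 at -0.82 and Rrm2 at -0.61. None of the 6 helicase genes Mcm2 to Mcm7 was lower in counts, and their median log2 ratio was 0.58. In TPM, Mcm7 was at 2.07 and 2.03. Mcm6 was at 7.21 and 10.24 and Mcm3 at 5.13 and 6.88. The lowest of the list were Ccne2 and Cdc6 (0.38 and 0.40). Measured by medians of log2(TPM + 0.1), the histone genes lay 0.058 above this list in replicate 1 and were at -1.13 relative to it in replicate 2, so their order differed between the libraries.

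Histone variants, most of which cells can make outside S phase from polyadenylated messages, were at a higher median level. The median of the replication-dependent genes minus that of the 11 variant genes was -1.84 ± 0.44 (SD, n = 2) on the log2(TPM + 0.1) scale. H3f3b and H3f3a, which encode the replacement histone H3.3, were at 371 and 252 and at 317 and 231, each above the sum of the 12 H3 genes, 33.8 and 15.5. H2afz was at 43.2 and 32.6 and H2afy at 29.8 and 30.4. The lowest were H2afy2 (0.45 and 0.48) and H1fx (0.04 and 0.07). None of 10 tested was called, which is near the background of 2.47% of all genes tested called lower and 2.98% higher. Of the 10, 8 were lower in replicate 2, with a median log2 ratio of -0.36. H3f3b was at -0.48 and H2afx at -0.76.

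Of 17 genes that make and destroy histone messages, 14 were detected. None of 15 tested was called, against 2.47% of all genes tested called lower and 2.98% higher, with a median log2 ratio of 0.08. Tut7, a terminal uridylyltransferase, was at 33.4 and 33.8, the scaffold Sympk at 19.2 and 19.2, the U7 subunit Lsm10 at 14.4 and 10.1, and the endonuclease Cpsf3 at 11.1 and 10.1. The lowest were Zfp473, at 0.02 in both, and Rnu7, the U7 RNA itself, which had no count in libraries with a size range of 250 to 400. Of 15 histone chaperones, 14 were detected and none was called, which is again near that background. Npm1 was at 78.3 and 56.5, Daxx, which delivers H3.3, at 41.6 and 43.3, Nap1l1 at 28.9 and 21.7 and Rbbp7 at 16.6 and 19.7. Asf1b (1.13 and 1.09) and Chaf1a (0.50 and 0.93), which serve deposition of new H3 and H4, were lowest.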

How the data were processed

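Cytosolic total RNA of 2 libraries of 1 group was analysed. Per the file headers, the authors deposited expected counts and TPM per gene and transcript from an alignment, with each transcript's percent of its gene's TPM, and estimated counts and TPM per transcript from the reads. The deposited text names mm10 and GENCODE M21. The aligner, quantifiers and strandedness were not given in the sources used here. Without strand, overlapping antisense transcripts cannot be told apart.

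Levels are deposited gene TPM, detected at 1 or more in both replicates. Genes absent from the read-based table (86) and transfer RNAs and spike-ins (0.119% and 0.122% of counts) were left out. Expected counts were rounded and scaled by TMM in edgeR 4.0.16 (R 4.3.3), with 0.5 added in log2 ratios, and each gene was tested by an exact binomial test. The test was first tried on simulated counts. DESeq2 1.42.0 gave alternative size factors. Python 3.11.15 was used for the rest. p-values and intervals cover counting error only, and with 2 libraries hold no biological spread. Motifs were searched in GENCODE M21 transcripts and in RefSeq promoter windows. TPM was rescaled to protein-coding genes because these held 29.9% and 26.2% of TPM in the alignment-based table and 17.8% and 11.6% in the read-based table.

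Genes were named by rule: the 20 highest by mean TPM, the 3 highest of each class, the highest of each cluster, the 6 largest differences each way between replicates and 6 between tables, those with more than 1 coding transcript, 3 on each side of the detection minimum, and the 4 highest and 2 lowest of the other lists. Some of them are not printed. Hist1h2aa, Hist1h2ao, Hist1h2ba, Hist1h1t and the members of divergent pairs were named after their values were seen. The genes and lists were chosen with earlier results of these data known. Alternatives were the read-based table, other scalings, minimums and pseudocounts, and leaving out each replicate.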

Additional observations from a re-analysis of the deposited data

How the results depend on the processing

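No paired analysis was possible because the study has 1 group. The read-based table, in which coding genes hold less of the total TPM, gave 25 histone genes detected in place of 42, a median TPM of 1.01 in place of 2.03, an H1 share of 8.68% and 19 genes called between replicates, which included all 12 and no H4 gene, against 2.77% of all genes tested. A TPM of at least 5 left 13 genes with a median of 8.32. Rescaling to coding genes, which raises the TPM of every gene, gave 57 detected and a median of 7.10. A minimum of 10 expected counts in both replicates gave 58 detected. The shares of all coding genes detected under these settings were not computed, so these counts describe the settings and not the histone genes. Expected counts in place of TPM gave shares of 19.9% for H1, 29.2% for H2A, 34.4% for H2B and 10.9% for H4. With detected genes alone the contrasts were -2.75 against variant histones, -1.08 against all detected coding genes and 0.089 against S phase genes, where the direction turned from -0.54.

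Each replicate alone gave 42 to 51 genes detected, a median TPM of 1.35 to 2.71, and shares of 8.80% to 9.08% for H1, 37.7% to 38.6% for H2A, 25.4% to 28.7% for H2B, 5.91% to 8.74% for H3 and 15.8% to 21.3% for H4. The contrasts ranged from -2.15 to -1.53 against variant histones, from -2.36 to -1.53 against coding genes and from -1.13 to 0.058 against S phase genes. Models running past the stem-loop held 41.5% to 44.5% of counts, and 36.6% with 500 bases as the minimum.

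Between replicates, a mean count of at least 50 gave a median log2 ratio of -0.62 and 8 genes called (1.49% of all genes tested), no filter 11 (1.77%), and DESeq2 size factors (2.39%) and unscaled totals (2.46%) 12 each, all lower. edgeR's exact test called 9, against 1.77% of all genes lower. Alternatives for class sums were chosen after seeing the data. The read-based table gave -0.42 for H2A, -0.62 for H2B and -0.51 for all histone genes, where the main value was -0.45. Rescaled TPM gave -0.37 for all and 0.064 for H4, and leaving out the 5 highest genes gave -0.52. The causes were not tested. Depth limits genes with few counts, such as Hist3h2ba and Hist1h2ah.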
